A study of Mus musculus with 18 samples.

Results

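The matrix metalloproteinases and their tissue inhibitors followed here are 9 genes, the proteases Mmp2, Mmp3, Mmp10, Mmp12, Mmp13 and Mmp14 and the inhibitors Timp1, Timp2 and Timp3. They were taken by symbol from a table of 55291 genes, and all 9 were listed. Their transcripts were measured by bulk RNA sequencing in 18 libraries of mouse tumours, 3 for each of 6 groups. Tumours were grown under the skin of BALB/cJ or C57BL/6J mice from CT26 cells, from CT26-NY-ESO-1 cells (CT26NYESO1) or from LL/2 cells (LL2). CT26 is a BALB/c colon carcinoma line, and CT26NYESO1 is labelled with NY-ESO-1, a human tumour antigen. LL/2, also called Lewis lung carcinoma, comes from a C57BL/6 mouse. For each line there was a control group (Ctrl) and a group whose tumours had been injected 24 hours before collection with OK-432 (OK432), a killed preparation of a group A streptococcus. All tumours were taken at day 14. The sources used here do not give what the control tumours received, the age of the mice or whether a line is a single clone. Nothing in the labels ties the 3 libraries of a group to separate mice, so p-values measure only the spread among libraries, which may be technical. Line and mouse strain differ together between LL2 and the other tumours and cannot be told apart.

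Matrix metalloproteinases are zinc-dependent enzymes that cut collagens, other matrix proteins and many cytokines and receptors. Most are secreted as inactive proenzymes, while Mmp14 stays in the plasma membrane. Tissue inhibitors of metalloproteinases bind the active site and block it. Mmp14 and Timp2 also act together at the cell surface, where they hold the proenzyme of Mmp2 while a second Mmp14 molecule cuts it into active gelatinase. In tumours these enzymes are made by cancer cells, fibroblasts and macrophages, and several of them are induced by inflammatory cytokines. The values below are transcript levels and hold no measure of enzyme activity.

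Mmp13, Mmp12, Mmp3 and Mmp10 lie in this order, all on the plus strand, in a cluster of 10 metalloproteinase genes on mouse chromosome 9 (9:7272514-7699585 in mm10, 427072 bases). Mmp2 lies on chromosome 8 (8:92827291-92853420), Mmp14 on chromosome 14 (14:54431612-54445364), Timp1 on chromosome X (X:20870166-20874735), Timp2 on chromosome 11 (11:118301069-118355740, minus strand) and Timp3 on chromosome 10 (10:86300372-86349506). The promoters of 3 cluster genes are printed because Mmp3 and Mmp10 were both higher in LL2 tumours than in the others, while their neighbour Mmp13 was not. They are the 250 bases before each RefSeq start on GRCm38.p6, 5′ to 3′ on the plus strand, and capitals mark a match to the AP-1 motif TGANTCA, searched on both strands. AP-1 is a dimer of Fos and Jun proteins that is known to drive many metalloproteinase genes.

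Mmp3 (chr9:7445572-7445821): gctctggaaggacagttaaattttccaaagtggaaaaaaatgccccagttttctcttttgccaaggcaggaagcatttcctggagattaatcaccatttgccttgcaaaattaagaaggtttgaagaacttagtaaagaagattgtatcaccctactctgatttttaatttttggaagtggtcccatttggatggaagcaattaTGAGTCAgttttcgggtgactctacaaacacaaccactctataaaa
Mmp10 (chr9:7502092-7502341): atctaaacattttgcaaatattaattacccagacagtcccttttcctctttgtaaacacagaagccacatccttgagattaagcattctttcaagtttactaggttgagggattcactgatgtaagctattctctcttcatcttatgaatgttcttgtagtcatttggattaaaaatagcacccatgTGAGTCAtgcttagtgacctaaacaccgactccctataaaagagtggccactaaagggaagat
Mmp13 (chr9:7272264-7272513): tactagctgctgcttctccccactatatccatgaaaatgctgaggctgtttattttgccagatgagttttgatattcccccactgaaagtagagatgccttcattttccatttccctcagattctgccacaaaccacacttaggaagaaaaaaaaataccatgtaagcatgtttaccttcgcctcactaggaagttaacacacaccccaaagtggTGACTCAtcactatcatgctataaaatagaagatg

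Each of the 3 windows holds 1 match, which begins 46 bases before the start in Mmp3, 63 in Mmp10 and 35 in Mmp13. The letters are TGAGTCA in Mmp3 and Mmp10, and TGACTCA, the same site read on the other strand, in Mmp13. Among 8 members with a RefSeq promoter entry, 4 hold a match: Mmp12 has 1 at its second annotated start and none at its first, and Mmp14, Timp1, Timp2 and Timp3 have none. These 8 members have 9 windows, and the 4 with a match all lie in the chromosome 9 cluster, so they are not independent. Counted per window rather than per gene, 6.75% of all 32851 RefSeq promoter windows of this length hold TGANTCA. As TGAGTCA on either strand 4.46% hold it. The letters TATAAA stand in the windows of Mmp3, Mmp10 and Mmp13, and in 12.4% of all windows. The matches are sequence descriptions, and binding was not measured.

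Levels are the authors' deposited TPM values, which correct for transcript length and sum to 1000000 in every library. The depth behind them is unknown. Each library listed 24036 to 25858 genes above 0, and libraries of 1 group correlated at a Pearson r of 0.989 to 0.995 across genes, which are not independent replicates. Summed levels of 10 fibroblast markers lay at 6264 to 9464 TPM in CT26 libraries, 1331 to 1951 in CT26NYESO1 and 2703 to 3826 in LL2. For 7 macrophage markers the ranges were 2216 to 2669, 1545 to 2595 and 1082 to 1305 TPM. For 5 epithelial markers they were 0.919 to 2.21, 10.3 to 24.4 and 374 to 568 TPM, and among these the level of Epcam, which marks carcinoma cells, was at most 0.304 TPM in any library and listed at 0 in 9. In bulk tissue, fewer cells of a type and less RNA per cell cannot be told apart.

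The first comparison was between the 3 kinds of control tumour. Mmp2 and Mmp3 differed most, and each tumour type had its own leading protease. CT26 tumours held high levels of Mmp2 and Mmp14, CT26NYESO1 tumours were lower in both, and LL2 tumours held high levels of Mmp3 with Mmp14. LL2 tumours were also low in Timp1 and Timp3, while Timp2 stood within a narrow range throughout. Differences were tested with limma on log2(TPM + 1) over 16816 genes that reached 1 TPM in at least 3 libraries, and a gene is said to be called where the adjusted p, by Benjamini-Hochberg over all tested genes, was under 0.05. All 9 members were tested, but Mmp10 reached 1 TPM only in the 6 LL2 libraries, so it entered through the tumours in which it is high.

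**Figure D1:**
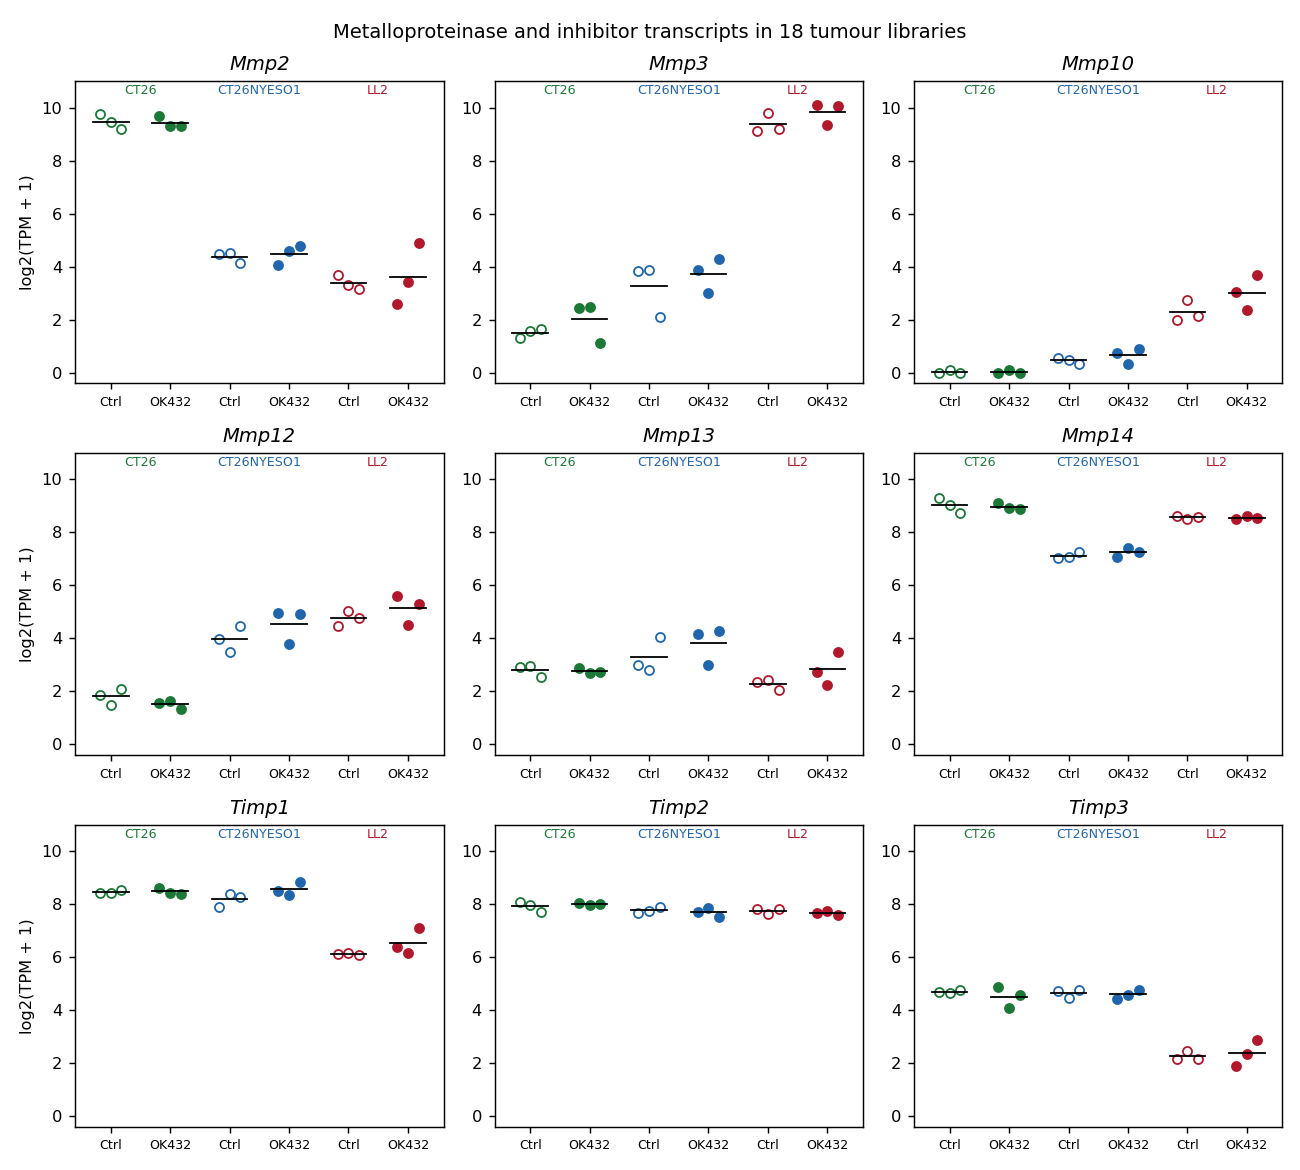
Level of each of the 9 genes as log2(TPM + 1) on the vertical axis, with 1 point per library (open, Ctrl; filled, OK432), 1 colour per tumour type and a bar at the mean of each group of 3. Mmp2 stands above 9 in the 6 CT26 libraries and Mmp3 above 9 in the 6 LL2 libraries, while open and filled points of 1 colour lie close together for most genes.

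Mmp2, gelatinase A, degrades denatured collagen and type IV collagen. In CT26 controls it stood at 874, 701 and 576 TPM in replicates 1, 2 and 3. In CT26NYESO1 controls it stood at 21.2, 21.9 and 16.7 TPM, and in LL2 controls at 12.0, 8.79 and 7.89 TPM. The 3 sets do not overlap, and every CT26 library stood above 500 TPM. The group mean was 717 ± 150 TPM in CT26 (SD, n = 3) and was 36.0-fold lower in CT26NYESO1, a log2 difference of −5.09 ± 0.421 (SE; limma adjusted p = 1.28e-07). It was 75.0-fold lower in LL2 (log2 difference −6.09, limma adjusted p = 1.61e-08). The order was thus CT26, CT26NYESO1, LL2, but the last step of −0.998 was not called (95% interval −1.91 to −0.09, limma adjusted p = 0.0508). That step was called without LL2 control replicate 1 (−1.16, limma adjusted p = 0.04999), treated LL2 replicate 1 (0.0137) or treated LL2 replicate 3 (0.00198), and under some other settings.

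Mmp14, the membrane-bound activator of Mmp2, followed another order. It stood at 630.3, 524 and 429 TPM in CT26 controls, at 130.1, 133 and 152 TPM in CT26NYESO1 controls and at 393, 366 and 386 TPM in LL2 controls. No values overlap between the tumour types, with CT26 highest and CT26NYESO1 lowest. The mean in CT26NYESO1 was 3.82-fold below that in CT26 (log2 difference −1.91 ± 0.111 SE, limma adjusted p = 2.16e-10), and LL2 lay above CT26NYESO1 by 1.46 (6.37e-09) and below CT26 by 0.45 (log2 difference −0.45, limma adjusted p = 0.00179). The level of Mmp2 relative to Mmp14 was 1.33 to 1.49 in CT26 libraries, 0.110 to 0.170 in CT26NYESO1 and 0.0136 to 0.0764 in LL2. In LL2 controls Mmp14 was thus abundant where Mmp2, its substrate, had its lowest mean. The Mmp2 step from CT26NYESO1 to LL2 controls was not called, and with OK-432 the Mmp2 ranges of these lines overlapped.

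The fibroblast markers moved with Mmp2 in part. Their summed level was 5.33 times as high in CT26 controls as in CT26NYESO1 controls and 2.33 times as high as in LL2 controls. Of the 10 markers, 7 were called lower and 1 higher in CT26NYESO1 than in CT26, and 6 lower and 3 higher in LL2. Of all tested genes 64.9% and 68.8% were called there. The fibroblast markers did not weigh equally in their sum: Col3a1 reached 4845 TPM and Col1a2 2703, while Fap, Thy1 and Postn reached 5.94, 52.8 and 58.2. Their log2 differences from CT26 in LL2 ran from −6.47 to 3.41. Per 100 TPM of fibroblast markers, Mmp2 stood at 7.54 to 9.31 TPM in CT26 libraries, 0.989 to 1.36 in CT26NYESO1 and 0.1498 to 1.05 in LL2. CT26 thus stood above both others on this scale too. Endothelial markers differed in the same direction, with 5 of 5 called lower in CT26NYESO1 and in LL2 than in CT26, beside the same shares of all genes. Their sum was 5.24 and 4.18 times as high in CT26. The sum of 4 adipocyte markers was 14.0 and 53.0 times as high in CT26, but almost all of it was Fabp4, and Adipoq was listed at 0 in all 3 CT26 controls. The part of these cell types in the difference was not tested.

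Mmp3, stromelysin 1, cleaves proteoglycans, fibronectin and the proenzymes of other metalloproteinases. It stood at 1.48, 1.93 and 2.14 TPM in CT26 controls, at 13.4, 13.5 and 3.27 TPM in CT26NYESO1 controls and at 549, 885 and 587 TPM in LL2 controls. The lowest LL2 control was thus far above the highest library of either other line, and CT26NYESO1 replicate 3 was low for its group. The mean in LL2 was 364-fold that in CT26, a log2 difference of 7.86 ± 0.497 (SE; limma adjusted p = 6.11e-09), and the log2 difference from CT26NYESO1 was 6.10 (limma adjusted p = 1.11e-07). CT26NYESO1 in turn lay above CT26 by 1.76 (95% interval 0.69 to 2.83, limma adjusted p = 0.00679).

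Mmp10, stromelysin 2, is the closest relative of Mmp3 among the members. Its level was listed at 0 in CT26 control replicates 1 and 3 and at 0.0708 TPM in replicate 2. It was 0.480, 0.397 and 0.260 TPM in CT26NYESO1 controls and 3.01, 5.67 and 3.40 TPM in LL2 controls. LL2 stood above CT26 by 2.26 on the log2(TPM + 1) scale and above CT26NYESO1 by 1.83. Both differences passed the threshold, but Mmp10 entered the test only through LL2 libraries, so they are given as a description. The step of 0.43 between the other lines was not called (limma adjusted p = 0.151). No fold is given against CT26, because 2 of its 3 libraries were listed at 0. Of the 50-base stretches of Mmp10 transcripts, 8.37% also occur in Mmp3, and in LL2 libraries Mmp3 stood at 90.9 to 183 times the level of Mmp10. The sources used here do not say how reads common to the pair were assigned, so the low values of Mmp10 are uncertain.

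Mmp12, the elastase known from macrophages, stood at 2.62, 1.78 and 3.30 TPM in CT26 controls. It was 14.8, 10.2 and 21.1 TPM in CT26NYESO1 controls and 21.04, 32.0 and 26.4 TPM in LL2 controls. Every control of both other lines was above every CT26 control, and the ranges of CT26NYESO1 and LL2 overlapped slightly. The log2 difference from CT26 was 2.16 ± 0.337 in CT26NYESO1 (SE; limma adjusted p = 4.65e-05) and 2.95 in LL2 (1.66e-06), where the mean was 10.3-fold that of CT26. The further step of 0.79 from CT26NYESO1 to LL2 was not called (95% interval 0.06 to 1.51, limma adjusted p = 0.0522). It was called without CT26NYESO1 control replicate 3 (1.03, limma adjusted p = 0.0228) or LL2 control replicate 1 (0.94, 0.0445), and without treated CT26NYESO1 replicate 2, treated LL2 replicate 1 or treated LL2 replicate 2 (0.0218, 0.0464 and 0.0326). The macrophage markers did not follow this order: their summed mean level was 1.05 times as high in CT26 as in CT26NYESO1 controls and 2.01 times as high as in LL2 controls. All 7 of these markers were called lower in LL2 than in CT26 controls, where 68.8% of all tested genes were called in either direction. Per 100 TPM of macrophage markers, Mmp12 stood at 0.0637 to 0.149 TPM in CT26 libraries, 0.513 to 1.89 in CT26NYESO1 and 1.75 to 4.43 in LL2. The part of macrophages in the Mmp12 difference was not tested.

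Mmp13, the main interstitial collagenase of mice, was low everywhere and varied least among the 4 cluster members. It stood at 6.52, 6.80 and 4.84 TPM in CT26 controls, 6.95, 6.05 and 15.8 TPM in CT26NYESO1 controls and 4.13, 4.45 and 3.17 TPM in LL2 controls. LL2 values lay below all others, and CT26NYESO1 replicate 3 stood far above its group. The only called difference was LL2 below CT26NYESO1, by −1.005 on the log2 scale (95% interval −1.80 to −0.21, limma adjusted p = 0.0274). This call ended without CT26NYESO1 control replicate 3 (−0.62, limma adjusted p = 0.146) or without LL2 control replicate 3 (−0.89, 0.0853).

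Timp1, which inhibits most soluble metalloproteinases, was high in both CT26 lines and low in LL2. It stood at 338, 339 and 371 TPM in CT26 controls, 239.6, 333 and 308 TPM in CT26NYESO1 controls and 69.2, 70.4 and 67.2 TPM in LL2 controls. The LL2 mean of 68.9 ± 1.60 TPM (SD, n = 3) was 5.07-fold below the CT26 mean of 349 ± 18.8. LL2 was below CT26 by −2.32 ± 0.193 on the log2 scale (SE; limma adjusted p = 4.59e-08) and below CT26NYESO1 by −2.06 (2.15e-07). The CT26 lines differed by −0.26 in CT26NYESO1, with an interval of −0.68 to 0.15 (limma adjusted p = 0.249).

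Timp3, an inhibitor that binds the matrix and also blocks several ADAM proteases, showed the same order. It stood at 24.6, 24.4 and 26.1 TPM in CT26 controls, 25.8, 21.2 and 26.2 TPM in CT26NYESO1 controls and 3.47, 4.49 and 3.45 TPM in LL2 controls. Here the CT26 lines overlapped, and every LL2 control was far below them. LL2 was 6.57-fold below CT26 by group means (log2 difference −2.44, limma adjusted p = 2.64e-08) and differed from CT26NYESO1 by −2.40 (3.95e-08). Syn3, on the opposite strand, covers 21.3% of the exon bases of Timp3. The level of Syn3 was 0.0288 to 0.342 TPM, and whether strand was used in counting is not stated.

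Timp2, the partner of Mmp14 in activating Mmp2, was the steadiest member. It stood at 272, 252 and 208 TPM in CT26 controls, 204, 211 and 239 TPM in CT26NYESO1 controls and 226, 198 and 224 TPM in LL2 controls, and all 3 ranges overlapped. Over all 18 libraries it ran from 182 to 272 TPM, and the highest group mean was 1.27 times the lowest. None of its differences was called, and the 95% intervals of the log2 difference from CT26 were −0.36 to 0.05 for CT26NYESO1 and −0.38 to 0.04 for LL2. Both differences were called without CT26 control replicate 3, at −0.27 (limma adjusted p = 0.0206) and −0.28 (0.0148).

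**Figure D2:**
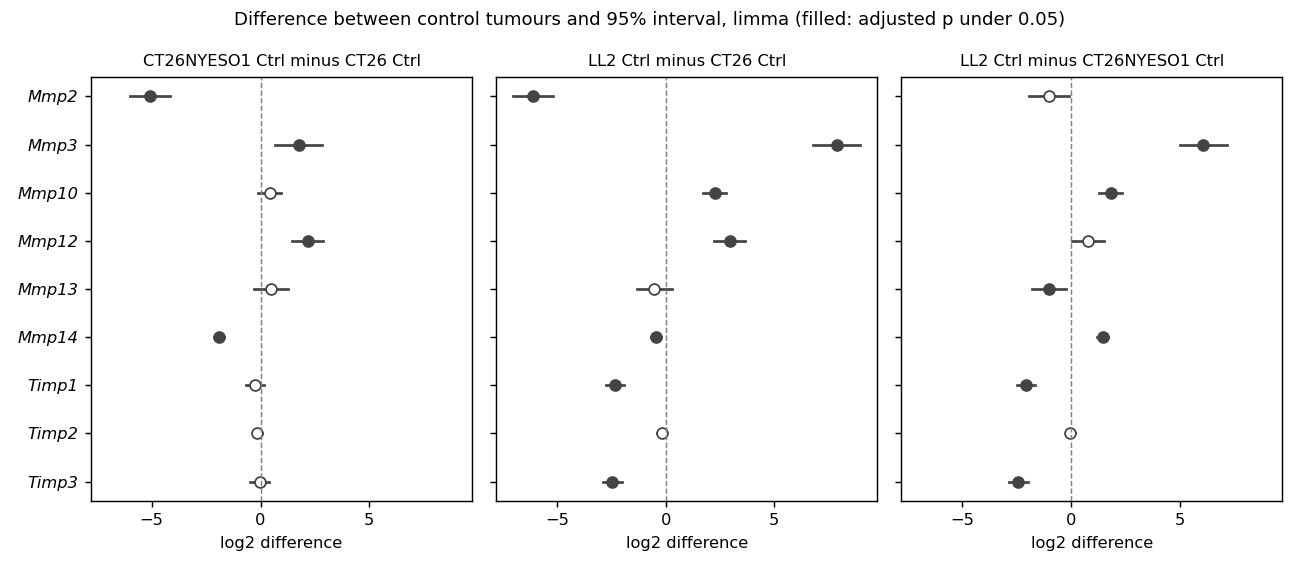
Difference in log2(TPM + 1) between control groups (horizontal axis) for each of the 9 genes, with limma's 95% interval as a line and filled points where the adjusted p was under 0.05. Mmp2 lies lowest (−5.09 and −6.09) against CT26 and Mmp3 highest (7.86) in LL2, while Timp2 sits next to 0 in all 3 panels.

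In count, 4 of 9 members were called in CT26NYESO1 against CT26 controls (2 higher, 2 lower), where 64.9% of all tested genes were called. In LL2 against CT26, 7 of 9 were called (3 higher, 4 lower) against 68.8% of all genes, and in LL2 against CT26NYESO1 6 of 9 (3 higher, 3 lower) against 66.3%. Mmp10, which entered through LL2 libraries, is among the 3 higher members in both LL2 comparisons. The first share is below that of all genes and the others are near it, and nothing particular to the members is read from these counts. The median log2 difference of the 9 was −0.04, −0.45 and −0.01 in the 3 comparisons, beside −0.18, −0.08 and 0.10 over all tested genes. After median-of-ratios rescaling, which brings the first of these medians to 0.0, CT26NYESO1 against CT26 stood at −4.88 for Mmp2, −1.70 for Mmp14, 1.92 for Mmp3 and 2.34 for Mmp12, and all 4 were still called. The small differences of Timp2 (0.06) and Timp3 (0.17) from CT26 in CT26NYESO1 then had the opposite sign, uncalled on either scale, and with quantile normalization so did Timp2 in LL2 against CT26 (0.02) and against CT26NYESO1 (0.05).

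Because TPM is comparable between genes per length, the proteases and the inhibitors can be summed within a library. In CT26 controls the 6 proteases summed to 1255 ± 250.3 TPM (SD, n = 3), against 193 ± 13.3 TPM for CT26NYESO1 and 1099 ± 176 TPM for LL2. Mmp2 made up 57.0% of the sum in CT26 and Mmp14 42.1%, Mmp14 made up 71.4% in CT26NYESO1, and Mmp3 made up 60.6% in LL2 with Mmp14 at 35.4%. Thus CT26 and LL2 controls reached overlapping sums with different leading genes, Mmp2 and Mmp3, while Mmp14 held a large share in both. The 3 inhibitors summed to 618 ± 15.1, 536 ± 57.9 and 288 ± 14.1 TPM. Timp1 was 56.6% of the inhibitor sum in CT26 and 54.6% in CT26NYESO1, but 24.0% in LL2, where Timp2 made up 74.7%. Protease over inhibitor transcripts came to 1.68 to 2.39 in CT26 controls, 0.327 to 0.398 in CT26NYESO1 controls and 3.29 to 4.78 in LL2 controls, with no overlap. With OK-432 the ranges were 1.81 to 2.00, 0.355 to 0.375 and 3.71 to 5.38, in the same order of tumour types.

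**Figure D3:**
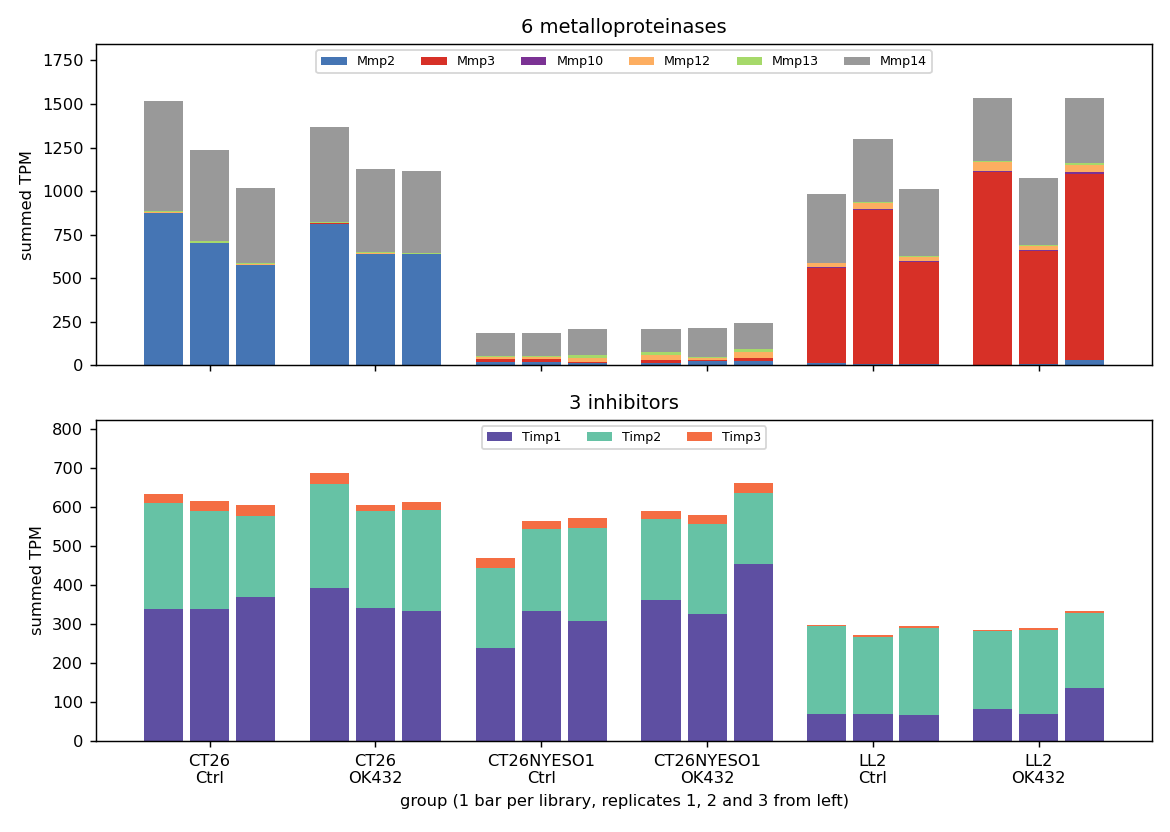
Summed TPM of the 6 proteases (top) and the 3 inhibitors (bottom) on the vertical axis, with 1 stacked bar per library, replicates 1, 2 and 3 from the left in each group, and 1 colour per gene. Protease bars are tall in CT26 through Mmp2 and Mmp14 and in LL2 through Mmp3 and Mmp14, and short in CT26NYESO1, while inhibitor bars are lowest in LL2.

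The second comparison asked what OK-432 changed after 24 hours. None of the 9 members was called in any tumour type. In CT26 0 of 9 were called (0.0% of all tested genes), in CT26NYESO1 0 of 9 (0.666%, or 112 genes) and in LL2 0 of 9 (0.0178%, or 3 genes). The count of 112 moved with single libraries: it was 4 without treated CT26NYESO1 replicate 3, 5 without control replicate 2, 19 and 25 without control replicates 1 and 3, 171 and 673 without treated replicates 1 and 2, and 0 in a fit of only the groups compared. In the average of the 3 effects 0 of 9 were called (0.172%). At an unadjusted p under 0.05 limma gave 0, 0 and 2 members in CT26, CT26NYESO1 and LL2, and 1 in the average, beside 689, 2727, 884 and 1735 of all 16816 tested genes. The median log2 change of the 9 was −0.03, 0.20 and 0.39 in the 3 tumour types, where the median of all genes was between −0.02 and 0.00.

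The precision of these changes differed by gene. For Mmp14 the 95% intervals of the log2 change were −0.31 to 0.16 in CT26, −0.11 to 0.36 in CT26NYESO1 and −0.26 to 0.21 in LL2. For Timp2 they were −0.12 to 0.29, −0.28 to 0.13 and −0.30 to 0.12, so both abundant members of the activating complex were held within narrow bounds. Mmp2 was less precise, at −0.94 to 0.88, −0.82 to 0.999 and −0.67 to 1.15. With OK-432 it stood at 811, 637 and 638 TPM in CT26, at 15.9, 22.8 and 26.1 in CT26NYESO1 and at 5.002, 9.57 and 28.5 in LL2. The last LL2 library is far above the other 5 of its line.

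Timp1, known as an inflammation-responsive inhibitor, was the member with the smallest adjusted p in CT26NYESO1 and in the average. With OK-432 it stood at 393, 342 and 335 TPM in CT26, 361, 326 and 454 TPM in CT26NYESO1 and 81.7, 70.6 and 138 TPM in LL2. In LL2 the 3 treated values all lay above the 3 controls, the single case among members in which treated and control groups did not overlap. Non-overlap was found for 9.89% of all genes in CT26, 17.0% in CT26NYESO1 and 9.87% in LL2, against 0, 0 and 1 of 9 members. The log2 change of Timp1 was 0.42 in LL2 (95% interval 0.01 to 0.84, limma adjusted p = 0.941), 0.37 in CT26NYESO1 (0.364) and 0.03 in CT26 (1.0). The average was 0.27 (interval 0.04 to 0.51, limma adjusted p = 0.414). Without LL2 treated replicate 3, the LL2 change was 0.14.

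The cluster proteases showed wide spread with OK-432. Mmp3 stood at 4.41, 4.57 and 1.17 TPM in CT26, 13.7, 6.98 and 18.5 in CT26NYESO1 and 1105, 649.9 and 1071 in LL2, and each set overlapped its controls. Its changes were 0.51, 0.46 and 0.48 on the log2 scale, with 95% intervals of −0.57 to 1.58, −0.62 to 1.53 and −0.60 to 1.55 (limma adjusted p = 1.0, 0.721 and 1.0). Without CT26NYESO1 control replicate 3 the change in that tumour type was −0.13. Mmp10 was listed at 0, 0.0836 and 0 TPM in CT26, and stood at 0.666, 0.260 and 0.867 in CT26NYESO1 and 7.16, 4.10 and 11.8 in LL2. Its LL2 change of 0.73 had the smallest adjusted p of the members in that tumour type (limma adjusted p = 0.777, unadjusted 0.0112), with overlapping groups.

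Mmp12 stood at 1.99, 2.12 and 1.53 TPM in treated CT26, 29.7, 12.9 and 29.2 in CT26NYESO1 and 47.9, 21.96 and 38.8 in LL2. Mmp13 stood at 6.35, 5.47 and 5.63 TPM in treated CT26, 16.8, 6.92 and 18.4 in CT26NYESO1 and 5.68, 3.72 and 10.3 in LL2. In both treated CT26NYESO1 and treated LL2, replicate 2 was the low library for Mmp3, Mmp10, Mmp12 and Mmp13. The changes in CT26NYESO1 were 0.58 for Mmp12 (limma adjusted p = 0.431) and 0.51 for Mmp13 (0.54). Without treated CT26NYESO1 replicate 2 they were 0.95 (0.113) and 0.93 (0.167), still uncalled.

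Timp3 stood at 28.3, 16.0 and 22.8 TPM in treated CT26, 20.6, 22.9 and 26.2 in CT26NYESO1 and 2.76, 4.08 and 6.36 in LL2. Mmp14 stood at 546, 478 and 467 TPM, 133, 168 and 153 TPM, and 366, 387 and 373 TPM. Timp2 stood at 265, 248 and 256 TPM, 209, 230.6 and 182 TPM, and 201, 215 and 191 TPM. Each of these sets overlapped the controls of its own tumour type.

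**Figure D4:**
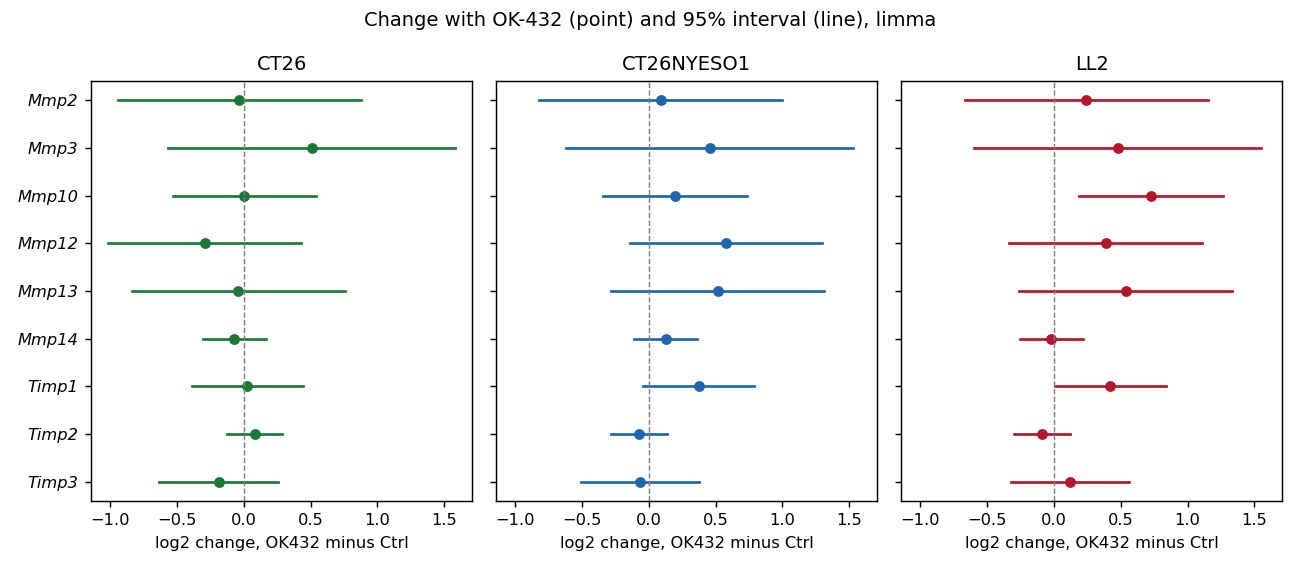
Change in log2(TPM + 1) with OK-432 (horizontal axis, OK432 minus Ctrl, n = 3 against 3) for each of the 9 genes in each tumour type, with limma's 95% interval as a line. The intervals of Mmp14 and Timp2 are short and span 0, those of Mmp2 and Mmp3 are long, and no change was called.

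The summed level of 8 neutrophil markers was higher in every treated library than in the controls of its tumour type. Of the 5 markers tested, limma called 0 in CT26 (smallest adjusted p = 0.538), 3 in CT26NYESO1, all higher, and 0 in LL2 (0.485). Of all tested genes 0.0%, 0.666% and 0.0178% were called there. In the average of the 3 effects 4 of the 5 were called, all higher (smallest limma adjusted p = 0.000489), beside 0.172% of all tested genes. The sum was 27.3 to 32.3 TPM in CT26 controls and 101 to 176 with OK-432, 10.7 to 17.0 and 81.4 to 686 in CT26NYESO1, and 19.4 to 33.2 and 132 to 217 in LL2. The markers did not weigh equally in the sum. S100a9 reached 452 TPM, S100a8 183 and Csf3r 33.0, while Camp, Ltf and Ly6g reached only 0.329, 0.633 and 0.548 TPM. Camp and Ly6g were listed at 0 in 6 libraries each and Retnlg in 3. Within treated CT26NYESO1, replicate 2 was lowest both for the marker sum (81.4 TPM) and for Mmp3, Mmp10, Mmp12 and Mmp13. It also had the highest skeletal muscle (109 TPM) and macrophage (2361 TPM) marker sums of its group. The other tumour types shared the joint low of neutrophil markers and cluster proteases at most in part. In treated CT26, replicate 2 had the lowest marker sum (101 TPM) and the lowest Mmp13 (5.47 TPM). It also had the highest Mmp3 and Mmp12 there and the only Mmp10 above 0 (0.0836 TPM). In treated LL2, replicate 1 had the lowest sum (132 TPM, beside 135 in replicate 2) and the highest Mmp3 and Mmp12. Its Mmp10 and Mmp13 lay between those of replicates 2 and 3. The part of neutrophil, macrophage or muscle content in the member values was not tested. In treated LL2, replicate 3 was the highest library for Mmp2, Mmp10, Mmp13, Timp1 and Timp3, with the lowest fibroblast marker sum of its line (2703 TPM) and the highest skeletal muscle marker sum of all libraries (332 TPM). It was also the highest LL2 library for neutrophil (217 TPM), endothelial (105 TPM) and adipocyte markers (28.6 TPM). Without it the log2 changes in LL2 were −0.39 for Mmp2, 0.40 for Mmp10 and 0.20 for Mmp13. The part of these cell types in that library's values was not tested.

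Whether the change with OK-432 differed between tumour types was tested directly. None of the 9 members was called in CT26NYESO1 minus CT26 (0.0% of all genes called), in LL2 minus CT26 (0.00595%) or in LL2 minus CT26NYESO1 (0.00595%), and none had an unadjusted p under 0.05 with limma. The smallest adjusted p was for Mmp12, whose change in CT26NYESO1 exceeded that in CT26 by 0.87 (95% interval −0.15 to 1.89, limma adjusted p = 0.619). The 3 differences share tumour groups and are not independent of each other.

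The gene order on chromosome 9 places the differences side by side. Of the 10 genes 7 were tested, and from Mmp13 to Mmp10 the LL2 control means were 3.92, 26.5, 2.38 (Mmp1b), 674, 3.65 (Mmp1a) and 4.03 TPM. Mmp1a and Mmp1b, the rodent relatives of human interstitial collagenase, flank Mmp3. Mmp1a was listed at 0 in all 12 CT26 and CT26NYESO1 libraries, and Mmp1b in 11 of them with 0.145 TPM in treated CT26NYESO1 replicate 3. In LL2 controls Mmp1a stood at 3.13, 5.09 and 2.73 TPM and Mmp1b at 1.94, 3.08 and 2.11 TPM. Of the 50-base stretches, 8.15% of those of Mmp1a occur in Mmp1b and 11.8% of those of Mmp1b in Mmp1a. Mmp1b also shares 157 exon bases with Mmp12 on the opposite strand, so these low values are uncertain too. Like Mmp10, Mmp1a and Mmp1b passed the expression filter only through LL2 libraries, so their difference from the other lines is given as a description. Beyond Mmp10, the neutrophil collagenase Mmp8 and the genes Mmp27, Mmp20 and Mmp7 had group means of at most 1.35 TPM, with Mmp20 listed at 0 in every library. Mmp13, at the other end, was lowest in LL2 controls, so the cluster was not higher in LL2 as a whole.

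**Figure D5:**
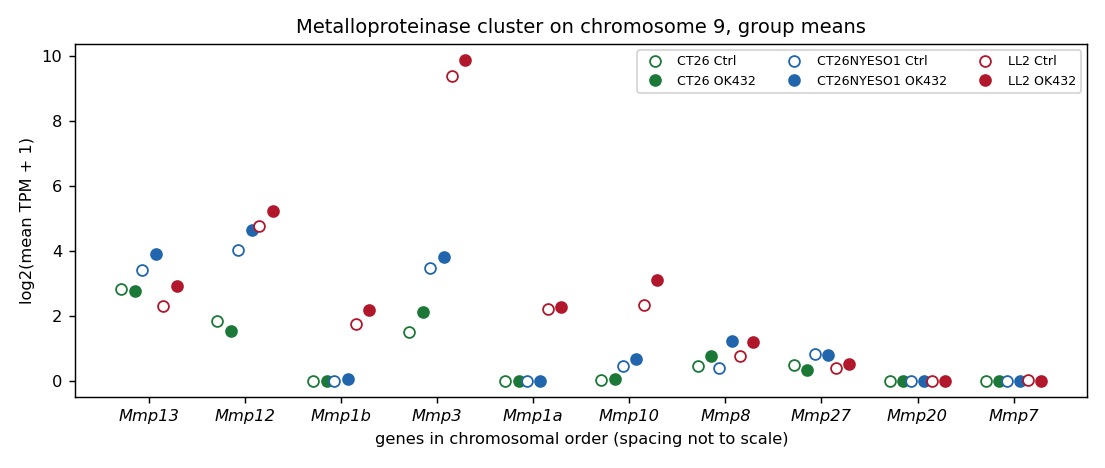
Level of the 10 metalloproteinase genes of chromosome 9 as log2(mean TPM + 1) on the vertical axis, in chromosomal order with spacing not to scale, for the 6 groups of 3 libraries (open, Ctrl; filled, OK432). Mmp3 in LL2 stands far above all other points, Mmp1a, Mmp1b and Mmp10 lie above 1 only in LL2, and Mmp13 does not follow them.

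The other metalloproteinases comprised 17 genes, of which 10 passed the expression filter. In CT26NYESO1 against CT26 controls 2 were called higher and 3 lower, beside 64.9% of all tested genes called in either direction. In LL2 against CT26 5 were called higher and 2 lower (68.8% of all genes), and in LL2 against CT26NYESO1 4 higher and 1 lower (66.3%). Mmp1a and Mmp1b, which entered through LL2, are 2 of the higher genes in each of the LL2 comparisons. Mmp28, a secreted protease of epithelia, stood at 1.68 ± 0.216 TPM in CT26, 0.833 ± 0.151 in CT26NYESO1 and 8.25 ± 1.01 in LL2 (control means ± SD over 3 libraries, as in the values after it), and was called between all 3. Mmp15, another membrane-type protease, was highest in CT26 at 6.83 ± 1.19 TPM, beside 0.986 ± 0.212 and 1.40 ± 0.518 TPM, and both differences from CT26 were called (limma adjusted p = 5.11e-08 and 2.43e-07). Mmp19 was higher than in CT26 by 0.63 in CT26NYESO1 and 0.79 in LL2 on the log2 scale. Mmp11, stromelysin 3 of tumour stroma, was lower by −0.59 in CT26NYESO1, and its uncalled differences with OK-432 were 0.35 in CT26 (limma adjusted p = 1.0), 0.09 and −0.05. Mmp9 and Mmp8, stored in neutrophil granules, were chosen for mention after their values were seen. Mmp9 stood at 13.2, 17.7 and 15.5 TPM in CT26NYESO1 controls and 25.7, 23.2 and 34.1 with OK-432, a log2 difference of 0.79 (limma adjusted p = 0.468). In CT26 it was 7.89, 14.2 and 5.77 TPM in controls and 34.0, 8.81 and 13.3 with OK-432, and in LL2 10.3, 7.02 and 8.66 against 10.1, 8.85 and 34.5 TPM. The differences of 0.81 and 0.72 there (limma adjusted p = 1.0 in both) and the average of 0.77 (0.389) were not called, and groups overlapped in CT26 and LL2. For Mmp8 the difference in CT26NYESO1 was 0.74 (0.16), also uncalled.

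Among 5 other inhibitors 3 were tested, of which 2 are described. Reck, a membrane-anchored inhibitor of metalloproteinases, stood at 14.3 ± 2.12 TPM in CT26, 5.04 ± 0.620 in CT26NYESO1 and 1.96 ± 0.336 in LL2 controls, and all 3 differences were called (limma adjusted p = 8.71e-08, 4.44e-11 and 2.01e-06). Serpine2, a secreted inhibitor of serine proteases, ran the other way, higher than in CT26 by 0.78 in CT26NYESO1 and 1.28 in LL2. LL2 controls, lowest in Timp1 and Timp3, were thus also lowest in Reck.

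The plasminogen system makes plasmin, which activates several proenzymes of this family, and 5 of its 7 listed genes were tested. In CT26NYESO1 against CT26 controls 3 were called higher and 2 lower, beside 64.9% of all tested genes called in either direction. Plaur, the urokinase receptor, stood at 232 ± 32.2 TPM in CT26NYESO1, beside 81.9 ± 1.82 in CT26 and 84.7 ± 3.77 in LL2 (limma adjusted p = 2.98e-10 against CT26). Plat, tissue plasminogen activator, was low there at 13.8 ± 5.28 TPM, beside 41.3 ± 9.26 and 38.9 ± 7.77. In LL2 against CT26 0 were called higher and 1 lower, beside 68.8% of all genes. The lower gene was the urokinase gene Plau (−0.36, limma adjusted p = 0.0225). In LL2 against CT26NYESO1 1 was called higher and 3 lower, beside 66.3%. With OK-432 the uncalled differences of Plau were −0.31, −0.43 and 0.29 in CT26, CT26NYESO1 and LL2 (limma adjusted p = 1.0, 0.125 and 0.922). Serpinb2, which inhibits urokinase and is given here after its values were seen, had the largest differences of the list, at 0.42, 1.92 and 1.60 (limma adjusted p = 1.0, 0.0881 and 0.715), and none was called. In CT26NYESO1 it stood at 5.52, 12.4 and 2.07 TPM in controls and at 27.6, 12.4 and 37.3 TPM with OK-432.

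Of 15 ADAM and ADAMTS proteases, relatives that shed membrane proteins or cut proteoglycans, 14 were tested. In CT26NYESO1 against CT26 4 were called higher and 10 lower, beside 64.9% of all tested genes called in either direction. In LL2 against CT26 3 were called higher and 7 lower (68.8% of all genes), and in LL2 against CT26NYESO1 6 higher and 5 lower (66.3%). Adamts5, the main aggrecanase of mice, had a pattern like that of Mmp2, at 66.7 ± 8.38 TPM in CT26, 0.784 ± 0.306 in CT26NYESO1 and 0.494 ± 0.162 in LL2 controls (log2 differences −5.25 and −5.50). Adam12 had the same order, at 46.2 ± 2.61, 8.28 ± 1.22 and 1.27 ± 0.347 TPM. Adamts14, a procollagen processing enzyme, ran the opposite way at 4.72 ± 0.772, 13.5 ± 1.21 and 59.0 ± 4.82 TPM. Adam19 was highest in LL2 at 26.3 ± 1.27 TPM.

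All 11 listed AP-1 and Ets factors, of families known to act at metalloproteinase promoters, were tested. No Ets motif was searched in the promoters printed above. In CT26NYESO1 against CT26 4 factors were called higher and 3 lower, beside 64.9% of all tested genes called in either direction. In LL2 against CT26 the counts were 5 and 4 (68.8% of all genes), and in LL2 against CT26NYESO1 3 and 4 (66.3%). Etv4 stood at 18.01 ± 3.79 TPM in CT26, 89.4 ± 4.07 in CT26NYESO1 and 96.2 ± 7.39 in LL2 controls. Fosl1 stood at 46.6 ± 2.80, 133 ± 24.8 and 74.1 ± 6.48 TPM, highest in CT26NYESO1, and Fosl2 at 98.4 ± 11.04, 34.5 ± 3.59 and 44.2 ± 4.65 TPM, highest in CT26. No single order holds for these factors. In the 3 comparisons of OK-432 with controls 0 genes of the 5 lists were called. At an unadjusted p under 0.05 limma gave 1 AP-1 or Ets factor in CT26, 5 in CT26NYESO1 and 2 in LL2, where 689, 2727 and 884 of all 16816 tested genes passed. Junb, the most abundant of them, had uncalled differences of −0.13, 0.43 and 0.28 (limma adjusted p = 1.0, 0.118 and 0.931).

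The genes most like each member over the 18 libraries were ranked by Pearson correlation of log2(TPM + 1) among 12688 genes with a group mean of at least 5 TPM. The points share tumour type, so these values mainly describe which genes differ between the 3 kinds of tumour in the same way. Mmp2 was followed most closely by Ccn5, Bgn and Mgll (0.996, 0.996 and 0.994), and Mmp3 by Map1b, Rbp4 and Srp54b (0.991, 0.990 and 0.990). Mmp14 was followed by Hs1bp3, Clip3 and Armcx1 (0.992, 0.991 and 0.986), Mmp12 by Hk2, Fam177a2 and Fam177a (0.981, 0.978 and 0.978) and Mmp10 by Odc1, Prss22 and Pcdh7 (0.979, 0.975 and 0.971). Among inhibitors, Ankrd1 was in the first 3 for both Timp1 (0.981, with Klf5 at 0.986 and Map6 at 0.979) and Timp3 (0.982, with Itpkb at 0.984 and Rpl39l at 0.982). Mmp13 and Timp2, the members that differed least between tumour types, had weaker matches, led by Il1rn (0.890) and Tmub1 (0.889).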

How the data were processed

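The authors deposited 1 table of TPM values for 55291 genes in 18 libraries. Per the labels, TRIzol RNA went into TruSeq stranded mRNA libraries. Tools named in the submitters' processing notes are Trim Galore 0.6.5, STAR 2.7.3a and StringTie 2.1.2, with the build mm10. The sources used here do not give the annotation, strand setting or filters. Depth cannot be read from TPM, so there is no counting interval or floor. TPM is a share of the library, so abundant genes move all others.

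Genes with at least 1 TPM in at least 3 libraries (16816) were tested on log2(TPM + 1) with limma 3.58.1 in R 4.3.3, using trended, robust empirical Bayes. One fit of 6 group means (12 residual degrees of freedom) gave 10 comparisons: OK432 against Ctrl in each tumour type, their average, the 3 differences between effects and the 3 pairs of controls. P-values were adjusted by Benjamini-Hochberg over all tested genes, and 0.05 was the threshold. Fold differences are ratios of mean TPM. Log2 changes understate the changes of low genes. The procedure was tested on simulated data, with larger changes than the members showed with OK-432, placed in genes above a minimum level. That test does not show whether smaller changes, or changes in lower genes, would be called.

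The members and all gene lists were chosen with earlier results of these data known. All members are named, with up to 4 called genes per list and comparison having the largest change, or the most abundant gene of a list where none was called, and the 3 genes most correlated with each member. A gene that this rule selects from a list is not reported here. Gene positions are from GENCODE M21 on mm10, and promoters from RefSeq (GRCm38.p6), where 8 of 9 members matched and Mmp2 has no entry. Alternatives were another pseudocount, other filters, median-of-ratios and quantile scaling, plain empirical Bayes, a fit of only the groups compared, a replicate block and each library left out. Whether same-numbered libraries deviate together was checked.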

Additional observations from a re-analysis of the deposited data

How the results depend on the processing

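The number of members called with OK-432 was 0 in every tumour type, in the average and in the differences between effects, with each of 18 libraries left out and under the 8 other settings. Between controls it was 4 in CT26NYESO1 against CT26 (4 to 5 over libraries left out and over other settings), 7 in LL2 against CT26 (7 to 8) and 6 in LL2 against CT26NYESO1 (5 to 8). No member's called difference changed sign. Of 2340 single-member values under an alternative, 21 became called and 3 lost their call, all of these 3 being Mmp13 in LL2 against CT26NYESO1. With no expression filter that value was −1.005 (limma adjusted p = 0.0511), and its losses with a library left out are given beside the gene, as are the calls of Timp2, Mmp2 and Mmp12 that appeared with a library left out. The LL2 minus CT26NYESO1 difference of Mmp2 was called with a pseudocount of 0.1 (−1.07, limma adjusted p = 0.0494), with median-of-ratios scaling (−1.11, 0.031), with quantile normalization (−1.04, 0.0405), with plain empirical Bayes (0.0393) and with only the groups compared (0.000731). That of Mmp12 was called with plain empirical Bayes (0.0499) and with only the groups compared (0.0375). Mmp10 was called in CT26NYESO1 against CT26 with a pseudocount of 0.1 (1.97, 0.000893) and with only the groups compared (0.43, 0.0178), and Mmp13 in LL2 against CT26 with only the groups compared (−0.52, 0.0157). The cause of these changes was not tested. Deviations of libraries with the same replicate number were weakly correlated (9 pairs, r −0.12 to 0.22, 1 pair over 0.1). With means of 3 libraries this check cannot exclude pairing or a shared batch. With the replicate block 0 members were called with OK-432, and Mmp12 was called in LL2 against CT26NYESO1 (0.79, limma adjusted p = 0.029). Over all genes the block moved the OK-432 calls from 112 to 43 in CT26NYESO1, from 3 to 23 in LL2 and from 29 to 98 in the average. Scaling moved the share of higher genes among all calls in CT26NYESO1 against CT26 controls from 32.5% to 49.2% with median-of-ratios and 51.8% with quantile normalization, in LL2 against CT26 from 42.2% to 49.6% and 55.3%, and with OK-432 in CT26NYESO1 from 61.6% to 73.9% and 79.5%. Depth is unknown, so low values such as those of Mmp10 carry an unknown counting error.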
